A study of Homo sapiens with 2 samples.

Results

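Antigen presentation was examined through 9 genes: HLA-B, HLA-C, HLA-E, B2M, TAP1, TAP2 and the class I regulator NLRC5 on the class I side, and HLA-DRA and the class II regulator CIITA on the class II side. The genes were listed by name and taken from the RefSeq gene table (59679 genes on the nuclear chromosomes, 20037 of them protein-coding). For each gene, the DNase I hotspots lying within 1 kb and within 20 kb of the gene span were collected on hg38. Hotspots are regions in which DNase I cut the DNA of isolated nuclei more often than the surrounding sequence, so they mark accessible chromatin.

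The study profiled Saos-2 and U2OS, established human cell lines derived from osteosarcoma, with 1 library per line. No treatment or genetic change is given for either line, and nuclei of both were digested with DNase I for 3 min at 37 °C. With 1 library per line there is no replicate error, so no test between the lines was made and every difference compares these 2 libraries. The lists held 51556 hotspots in Saos-2 and 63388 in U2OS, called by the authors at a false discovery rate of 0.05, and the read depth of both libraries is unknown. Each hotspot has a significance from the authors, a −log10 value between 1.30 and 100, and the median was 4.05 (Saos-2) or 4.60 (U2OS). It is given here with its percentile in its own list, because the level of significance also depends on depth. Of all protein-coding genes, 64.8% had a hotspot within 1 kb in Saos-2 and 70.7% in U2OS. Of the 6 osteoblast marker genes, 4 had one in each line, a share near that background. COL1A2 had none in either line, SP7 had one in Saos-2 and not in U2OS, and COL1A1 had them in U2OS and not in Saos-2. Of 8 blood cell marker genes, 3 had one in Saos-2 and 4 in U2OS, below the background shares: PTPRC, SPI1 and CSF1R in both lines, and ITGAX in U2OS.

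Class I molecules present peptides made inside the cell to cytotoxic T cells. A polymorphic heavy chain, such as HLA-B or HLA-C, is held at the surface with the invariant light chain B2M, after the TAP1 and TAP2 transporter has brought peptides into the endoplasmic reticulum. Most nucleated cells make class I molecules, and NLRC5 raises the transcription of their genes. Class II molecules, of which HLA-DRA encodes the DR alpha chain, present peptides from outside the cell to helper T cells. They are mostly restricted to professional antigen-presenting cells unless interferon gamma induces CIITA, the coactivator that class II transcription requires. NLRC5 and CIITA do not bind DNA by themselves and act through RFX, CREB and NF-Y factors on conserved promoter boxes.

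Hotspots lay within 1 kb of every class I gene in Saos-2 (7 of 7) and of 6 of 7 in U2OS, the exception being HLA-B. On the class II side CIITA had hotspots in both lines and HLA-DRA in neither, which is 1 of 2 genes in each line. The shares over all protein-coding genes were 64.8% (Saos-2) and 70.7% (U2OS), and 60.0% had a hotspot in both. Short genes had fewer: of the 5694 protein-coding genes with a span under 10 kb, 37.5% had a hotspot within 1 kb in Saos-2 and 42.7% in U2OS. HLA-B, HLA-C, HLA-E, B2M, TAP1 and HLA-DRA all belong to that length class. Of the 2913 genes with a span of 50 to 100 kb, to which NLRC5 and CIITA belong, 82.0% and 87.8% had one. Both class I counts stood above the shares over all protein-coding genes, and the class II counts of 1 in 2 below them. They rest on 7 and 2 genes, and genes of 1 genome are not replicates.

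**Figure D1:**
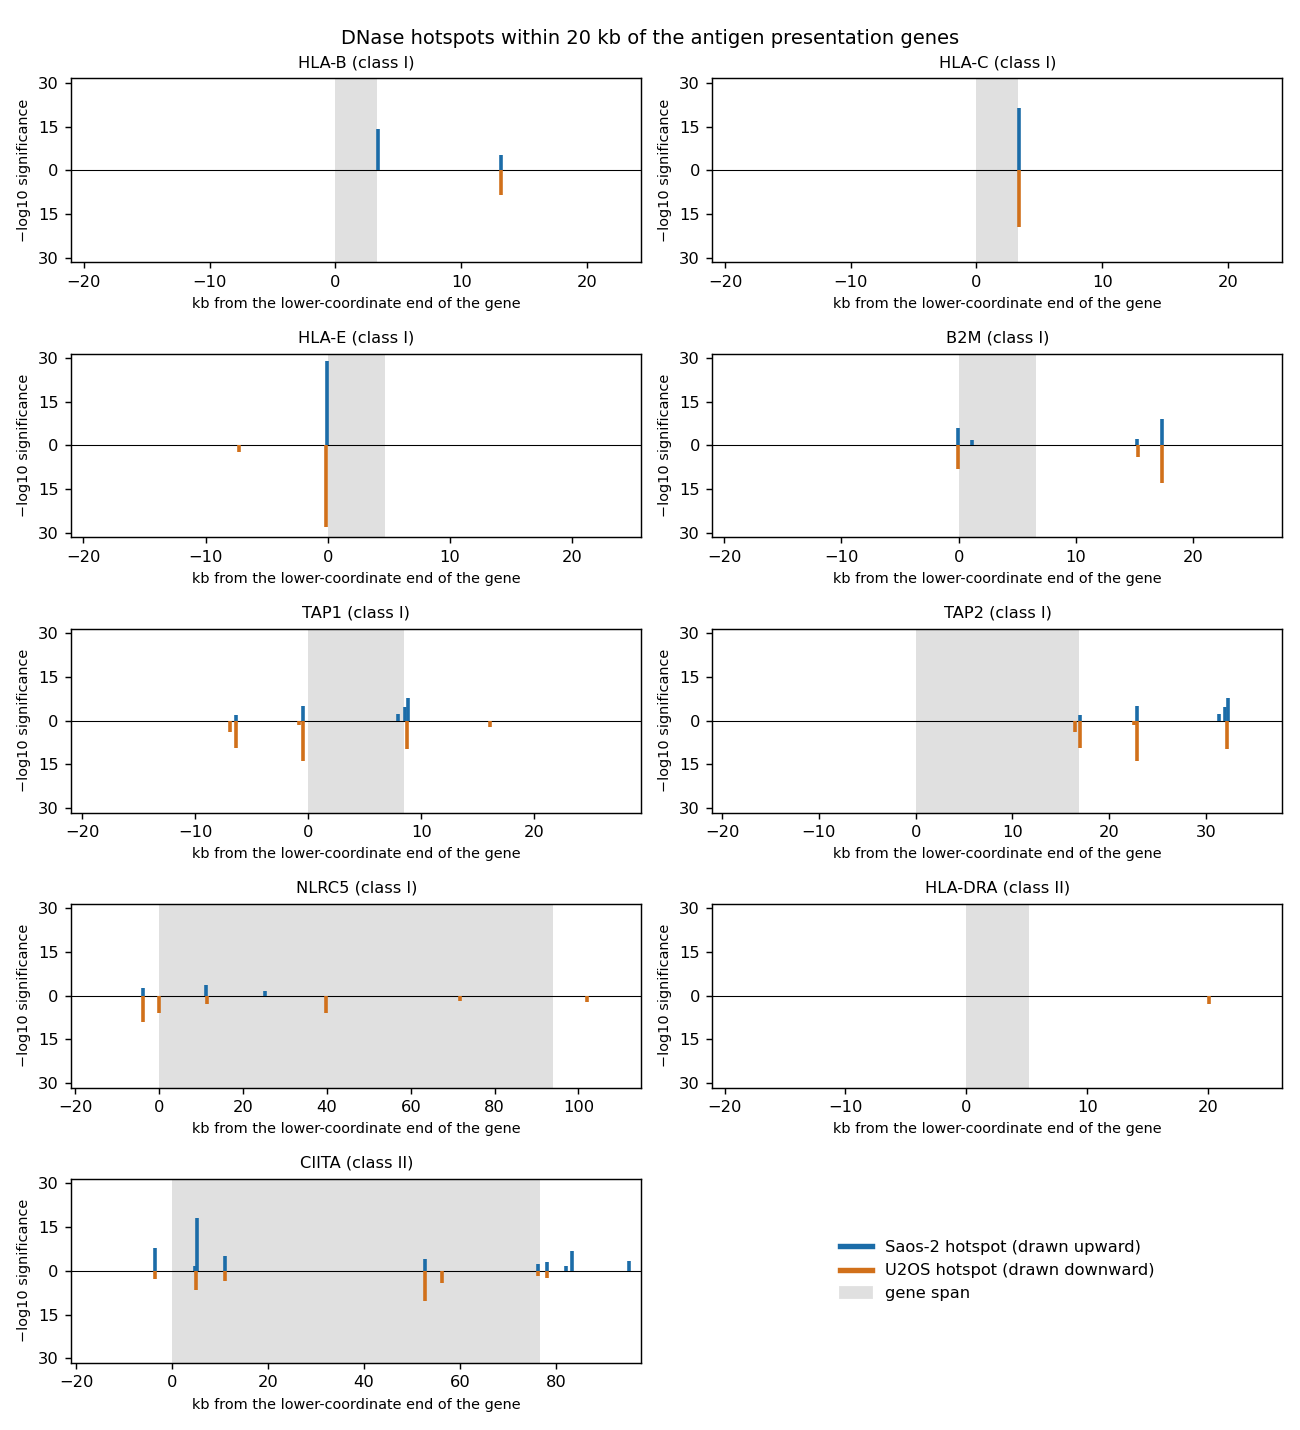
Hotspots within 20 kb of each gene, at their distance in kb from the lower-coordinate end of the gene (grey band: gene span); line height is the authors' −log10 significance, upward for Saos-2 and downward for U2OS. HLA-C and HLA-E have tall, paired hotspots at 1 gene end, the HLA-B end hotspot appears in Saos-2 without a U2OS counterpart, and no hotspot lies within 1 kb of HLA-DRA, the nearest being the U2OS one 14.8 kb outside it.

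The heavy chain genes were compared at their promoters, where the lines differed at HLA-B. HLA-B (gene 3106, chromosome 6, 31353875 to 31357179) is transcribed toward lower coordinates, so its start is at the higher end of the span. In Saos-2 a hotspot of 315 bp at 31357120 to 31357434 covered that start, with a significance of 14.1 at percentile 90.6. No U2OS hotspot lay there, and the nearest one was 9.71 kb from the gene. HLA-B was thus in the group of protein-coding genes with a hotspot within 1 kb in Saos-2 and not in U2OS, which held 4.75% of the 20037 genes (10.7% had one in U2OS and not in Saos-2) and 7 of the 131 protein-coding genes of the MHC region (5.34%), taken as chromosome 6 from GABBR1 to HLA-DPB1. At like significance such a site was usually shared: of the 5156 Saos-2 hotspots within 5 percentile points of it, 83.0% overlapped a U2OS hotspot. U2OS did have a hotspot at the next site outward, in the pseudogene DHFRP2, where the Saos-2 value was 5.39 and the U2OS value 8.34.

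HLA-C (gene 3107, chromosome 6, 31268749 to 31272092) lies on the same strand, at lower coordinates than HLA-B in the class I part of the MHC. Its start was covered by a hotspot in both lines, and the significance was 21.5 in Saos-2 (percentile 96.4) and 19.5 in U2OS (percentile 92.2). The hotspots, of 359 and 350 bp, shared 338 bp. It was the single hotspot within 20 kb of HLA-C in each list.

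The 250 bases before the start of HLA-B and of HLA-C are shown because the hotspots of the lines differed over 1 of them and not over the other. Both are written 5′ to 3′ on the transcribed strand, from RefSeq (GRCh38.p14), HLA-B from chr6:31357180-31357429 and HLA-C from chr6:31272093-31272342, minus strand. Capitals mark matches to any of 6 motifs searched on both strands: CCAAT (the NF-Y box), GCAAC (part of the RFX site), TGACG (part of the CREB site), TTCNNNGAA (STAT factors), the IRF motif of interferon regulatory factors (GAAA, any 2 bases, GAAA) and the NF-kB motif (GGGA, any 4 bases, CC).
HLA-B: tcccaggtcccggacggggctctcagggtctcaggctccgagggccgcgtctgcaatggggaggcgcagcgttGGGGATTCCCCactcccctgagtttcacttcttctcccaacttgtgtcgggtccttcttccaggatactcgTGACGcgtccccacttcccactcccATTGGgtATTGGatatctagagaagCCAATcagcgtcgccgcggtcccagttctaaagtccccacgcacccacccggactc
HLA-C: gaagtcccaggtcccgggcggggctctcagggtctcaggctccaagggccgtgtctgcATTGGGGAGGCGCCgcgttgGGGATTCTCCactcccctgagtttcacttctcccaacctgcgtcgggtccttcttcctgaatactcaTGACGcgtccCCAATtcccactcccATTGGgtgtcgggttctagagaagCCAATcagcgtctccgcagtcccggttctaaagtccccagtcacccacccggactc
The Saos-2 hotspots covered all 250 bases of both sequences, and the U2OS hotspots covered 239 bases of HLA-C and 0 of HLA-B.

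Both promoters held the same kinds of boxes. Counting positions backward from the start, where -1 is the base before it, HLA-B had CCAAT matches at -81 to -77, -74 to -70 and -56 to -52. It had TGACG at -106 to -102 and 2 overlapping NF-kB matches between -177 and -167. HLA-C had 4 matches to CCAAT, including 1 at -56 to -52 as in HLA-B, TGACG at -105 to -101 and NF-kB matches at -188 to -179 and at -172 to -163. Neither window held the exact letters of GCAAC, of TTCNNNGAA or of the IRF motif. The search required every fixed letter, so it does not show that a site with other letters is absent. Among 35116 RefSeq promoter windows of this length, 32.0% held CCAAT, 21.2% TGACG, 22.6% the NF-kB motif, 28.2% GCAAC, 6.57% TTCNNNGAA and 3.02% the IRF motif. Every match in the HLA-C window lay inside a hotspot in both lines, and every match in the HLA-B window inside the Saos-2 hotspot.

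The 2 promoters were also alike as a whole, with 226 identical bases in 254 aligned columns (89.0%) and a longest identical run of 25 bp. How reads that fit both genes, or that carry alleles far from the reference, were treated is not given in the sources used here, so the HLA-B and HLA-C values are uncertain to that extent. Its part in the HLA-B difference was not tested.

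HLA-E (gene 3133, chromosome 6, 30489509 to 30494194) encodes a nonclassical heavy chain with little variation, which presents signal peptides of other class I chains to natural killer cells. Its lower-coordinate end had the most significant hotspots of all 9 genes, 29.1 (percentile 98.5) in Saos-2 and 27.8 (percentile 96.6) in U2OS. They were 430 and 423 bp wide and shared 395 bp. Ranked by the most significant hotspot within 1 kb, HLA-E stood above 95.3% of the 12981 protein-coding genes with a hotspot in Saos-2 and above 88.3% of the 14168 in U2OS. For HLA-C these shares were 89.2% and 77.1%, and for HLA-B in Saos-2 75.3%. A further hotspot 7.18 kb from HLA-E, of 150 bp and significance 2.39, was called in U2OS and not in Saos-2.

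B2M (gene 567, chromosome 15, 44711517 to 44718145) encodes the light chain shared by all class I molecules. Both lines had a hotspot over its start, of significance 6.07 (Saos-2, percentile 66.9) and 8.15 (U2OS, percentile 71.2). These values were below the middle of genes with a hotspot: B2M stood above 38.9% of them in Saos-2 and above 41.9% in U2OS, below HLA-C and HLA-E in each line. The start of PATL2, which is read in the opposite direction, lies 127 bp away, and the hotspots reached into both genes.

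The B2M promoter is shown for its matches to the letters of the IRF motif. The exact search found none in the HLA-B and HLA-C windows. The 150 bases before the start are printed (GRCh38.p14, chr15:44711367-44711516, plus strand), with capitals as above.
B2M: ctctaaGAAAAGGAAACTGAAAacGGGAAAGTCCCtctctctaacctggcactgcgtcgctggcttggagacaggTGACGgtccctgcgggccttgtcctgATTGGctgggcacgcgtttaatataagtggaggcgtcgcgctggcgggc
The IRF motif matched at -144 to -135 and, overlapping it, at -138 to -129, followed by 2 overlapping NF-kB matches between -126 and -116, TGACG at -75 to -71 and CCAAT at -49 to -45. All of these lay inside the hotspot of both lines.

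Beyond the start, Saos-2 had a small hotspot in the B2M gene, 92 bp wide with a significance of 1.82, that U2OS lacked. Both lines shared a pair of sites on the far side of B2M. The nearer one, 8.50 kb from the gene in Saos-2, reached 2.14 there and 3.81 in U2OS. The farther one, at the pseudogene RNF4BP, was 594 bp wide in Saos-2 (significance 9.05) and 533 bp wide in U2OS (13.0). In both lines this site was more significant than the one at the B2M start.

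TAP1 and TAP2 encode the subunits of the peptide transporter and adjoin the immunoproteasome genes PSMB8 and PSMB9, whose products trim proteins into peptides for class I. Their 20 kb windows overlap, and 5 hotspots in each line were counted for both genes. TAP1 (gene 6890, chromosome 6, 32845209 to 32853704) starts 488 bp from PSMB9, which is read in the opposite direction. In U2OS a single hotspot of 579 bp (significance 9.61, percentile 76.4) covered the interval between the starts. In Saos-2 the interval held 2 hotspots separated by a few bases, of 260 bp (4.61, percentile 55.7) on the TAP1 side and 365 bp (7.85, percentile 76.0) on the PSMB9 side. A further Saos-2 hotspot, 127 bp wide with a significance of 2.22, lay inside TAP1 without a U2OS counterpart. U2OS in turn had small hotspots without a Saos-2 counterpart in PSMB8 (102 bp, significance 1.61) and beyond PSMB9 (122 bp, 2.18).

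TAP2 (gene 6891, chromosome 6, 32821831 to 32838739) differed more between the lists. At its start the U2OS hotspot spanned 359 bp, with significance 9.49 (percentile 76.0), and the Saos-2 hotspot spanned 140 bp, with 2.02 (percentile 14.7). The ratio of U2OS to Saos-2 significance was 4.70. Among 27672 sites paired 1 to 1 between the lines the median ratio was 1.30, and 93.9% of pairs had a lower ratio than the TAP2 start. U2OS had a further hotspot inside TAP2, of 229 bp and significance 3.92, that Saos-2 lacked. The start of PSMB8, within 1 kb of the far end of TAP1, followed the same direction, from 5.07 (Saos-2) to 13.9 (U2OS), a ratio of 2.75 that was above that of 81.9% of pairs.

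The TAP1 and TAP2 promoters are shown because hotspot coverage was nearly complete over TAP1 in both lines but partial over TAP2 in Saos-2. TAP1 is from chr6:32853705-32853954 and TAP2 from chr6:32838740-32838989 (GRCh38.p14), minus strand, with capitals as above.
TAP1: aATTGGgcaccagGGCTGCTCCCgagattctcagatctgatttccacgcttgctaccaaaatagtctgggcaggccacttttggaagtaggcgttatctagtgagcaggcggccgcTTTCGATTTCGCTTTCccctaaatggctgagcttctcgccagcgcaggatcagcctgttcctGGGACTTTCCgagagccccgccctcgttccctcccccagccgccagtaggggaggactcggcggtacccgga
TAP2: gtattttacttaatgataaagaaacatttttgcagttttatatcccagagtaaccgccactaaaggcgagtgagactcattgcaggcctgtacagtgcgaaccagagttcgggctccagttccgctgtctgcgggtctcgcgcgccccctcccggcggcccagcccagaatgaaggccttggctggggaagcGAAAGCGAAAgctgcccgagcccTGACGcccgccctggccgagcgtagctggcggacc
Saos-2 hotspots covered 245 of the 250 bases of TAP1 and 140 of TAP2, and U2OS hotspots covered all 250 of both.

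The IRF motif was in both transporter promoters. TAP1 had overlapping IRF matches at -134 to -125 and -128 to -119 on the opposite strand, NF-kB matches at -237 to -228 and -72 to -63, and CCAAT at -249 to -245. TAP2 had an IRF match at -58 to -49, inside the hotspot of both lines. Its TGACG match at -35 to -31 lay inside the U2OS hotspot and just outside the narrower Saos-2 one. The window of TAP2 held no CCAAT. RefSeq lists a second start of TAP1, at 32852761 inside the gene. Its window, not printed because it lies within TAP1, held TTCNNNGAA and no IRF match, and hotspots covered 0 of its bases in both lines. Thus exact matches to the IRF motif were in 3 of the 6 promoter windows searched for these genes, 1 each for B2M, TAP1 and TAP2. The windows of HLA-B and HLA-C had no exact match, which does not show that they lack an IRF site with other letters. The promoter windows used here did not include HLA-E, NLRC5, HLA-DRA or CIITA, so the motif search did not cover them.

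NLRC5 (gene 84166, chromosome 16, 56989557 to 57083520) had a hotspot over its lower-coordinate end in U2OS, at 56989398 to 56989630, with a significance of 5.85 (percentile 59.5). Saos-2 had none there, and its nearest hotspot to that end was 3.73 kb away. At like significance such absence was common, since 49.3% of the 6335 U2OS hotspots within 5 percentile points of this one overlapped a Saos-2 hotspot. The site 3.73 kb outside the gene, in the lncRNA gene LOC124903696, was called in both lists, at 2.51 (Saos-2) and 8.90 (U2OS). Its ratio of 3.55 was above that of 88.8% of pairs. Inside the gene, 1 site 11.2 kb from the lower end was shared (3.80 in Saos-2 and 2.92 in U2OS). Saos-2 had 1 more, of significance 1.49, and U2OS 2 more, of 5.98 and 1.88, besides a site of 2.16 at 8.02 kb beyond the higher end. Within 20 kb of NLRC5 the lists held 3 hotspots and 455 covered bases in Saos-2 and 6 hotspots and 1224 covered bases in U2OS.

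**Figure D2:**
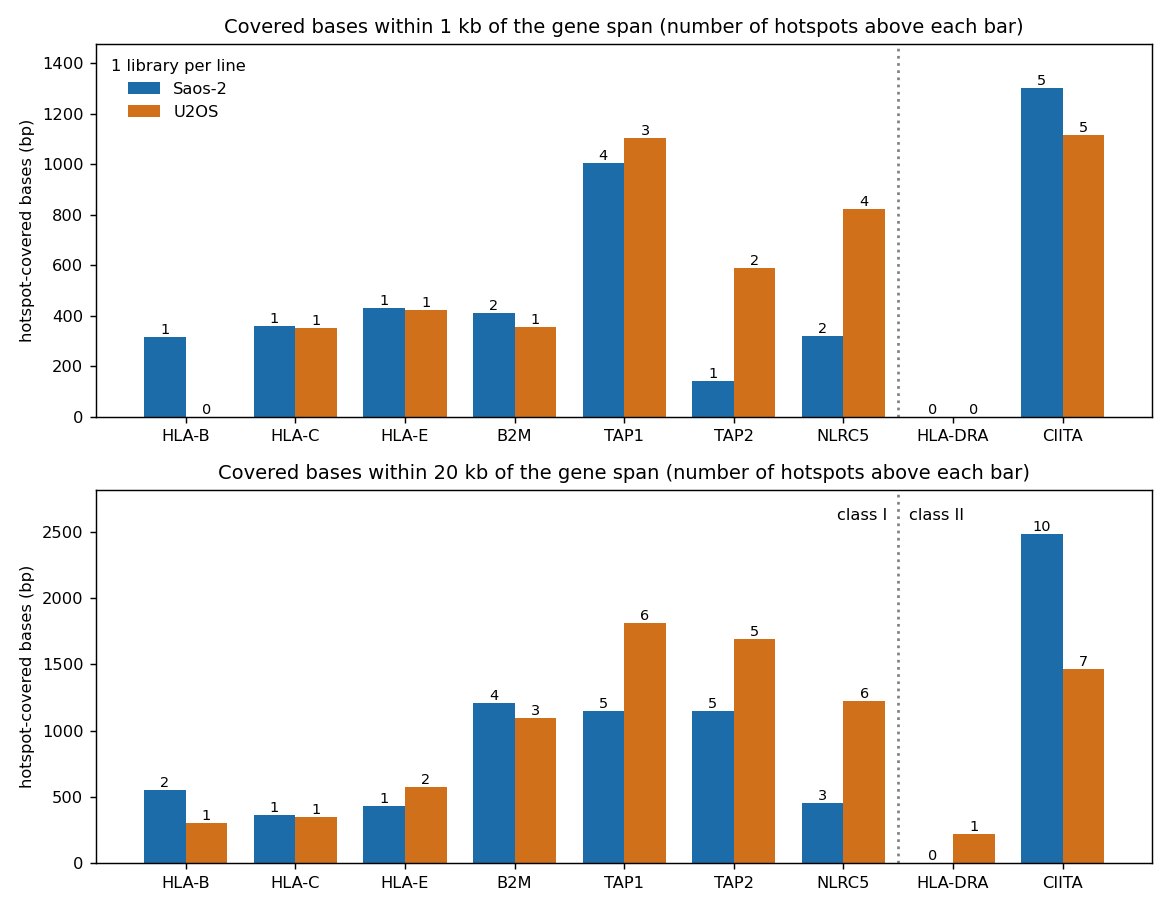
Bases covered by hotspots within 1 kb (top) and 20 kb (bottom) of each gene span, for 1 library per line, with the number of hotspots above each bar. Within 1 kb, TAP2 and NLRC5 have more covered bases in U2OS (588 and 822 bp) than in Saos-2 (140 and 320 bp), HLA-B has 315 bp in Saos-2 and 0 in U2OS, and HLA-DRA has 0 in both.

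On the class II side, HLA-DRA (gene 3122, chromosome 6, 32439887 to 32445046) lacked a hotspot within 1 kb in both lists. In all, 24.5% of protein-coding genes had none in either line, and among genes with a span under 10 kb the share was 52.3%. In Saos-2 the nearest hotspots were 184 kb away on the lower side and 165 kb on the higher side, and the stretch without a hotspot was 354 kb long. It was longer than 97.8% of the gaps between neighbouring Saos-2 hotspots and held 5 protein-coding genes. As for HLA-B and HLA-C, the treatment of reads that fit several genes or differ from the reference is not given. The absence of hotspots here is uncertain to that extent, and the part of read treatment in it was not tested. In U2OS the stretch was 89.8 kb long, and 86.8% of gaps were shorter. Its higher end was a hotspot 14.8 kb from HLA-DRA, in the pseudogene HLA-DRB9, 217 bp wide with a significance of 2.99 (percentile 30.6). That site gave HLA-DRA its only hotspot within 20 kb in either list. Having a hotspot within 20 kb in U2OS and none in Saos-2 was seen in 9.53% of protein-coding genes. The pattern of HLA-DRA over both windows and lines was shared by 825 protein-coding genes (4.12%), and 3 of these, HLA-DRA included, were in the MHC region.

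CIITA (gene 4261, chromosome 16, 10866206 to 10943021) was the other extreme, with 5 hotspots within 1 kb in each list. Within 20 kb it had 10 (Saos-2) and 7 (U2OS). None lay within 1 kb of its lower-coordinate end. The closest to that end was a site outside the gene, 3.42 kb away in Saos-2 and 3.47 kb in U2OS. The most significant CIITA hotspot of Saos-2, 668 bp wide at 10871081 to 10871748, had a significance of 18.0 (percentile 94.4). It contained a U2OS hotspot of 324 bp with 6.58 (percentile 63.8). A hotspot of 94 bp with significance 1.77 adjoined it in Saos-2. The next site inward, 237 bp wide in Saos-2 and 203 bp in U2OS, had a significance of 5.19 and 3.56.

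Another shared site in CIITA went the other way. At 10918868 to 10919019 the Saos-2 hotspot spanned 152 bp (significance 3.87), and the U2OS hotspot over it spanned 274 bp (10.4), the highest of U2OS in CIITA. U2OS also had a hotspot at 10922418 to 10922638, of significance 4.35, that Saos-2 lacked. At the higher-coordinate end the shared hotspots touched the start of DEXI and lay beside that of CLEC16A, neighbouring genes, with significance between 1.82 and 3.10. A group of 3 further Saos-2 hotspots without U2OS counterparts lay within CLEC16A, 5.36 to 18.3 kb from CIITA, and the highest of them had a significance of 6.88.

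Between the lines, 10 class I sites and 6 class II sites were paired 1 to 1 within 20 kb, and all 6 class II pairs belonged to CIITA. In 7 of 10 class I pairs U2OS had the higher significance, with a median ratio of U2OS to Saos-2 of 1.49. Among these 7, only the B2M and TAP2 sites were at the start of a class I gene. The others lay in DHFRP2, beyond B2M, at the PSMB8 start and in LOC124903696. The ratio was below 1 at HLA-C (0.90), HLA-E (0.95) and the site inside NLRC5 (0.77). The HLA-B and TAP1 starts had no 1 to 1 partner and were left out. Over all pairs U2OS was higher in 62.7%, and the median was 1.30. In CIITA it was higher in 1 of 6, with a median ratio of 0.73. The lowest ratios of the class II pairs were 0.36, at the site outside the lower end and at the widest Saos-2 hotspot, and at most 6.23% of all pairs had a lower one. By percentile in their own lists, the same 7 class I pairs and 1 class II pair stood higher in U2OS, against 55.5% of all pairs. Sites near 1 gene are not independent, and these counts describe 1 library per line.

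**Figure D3:**
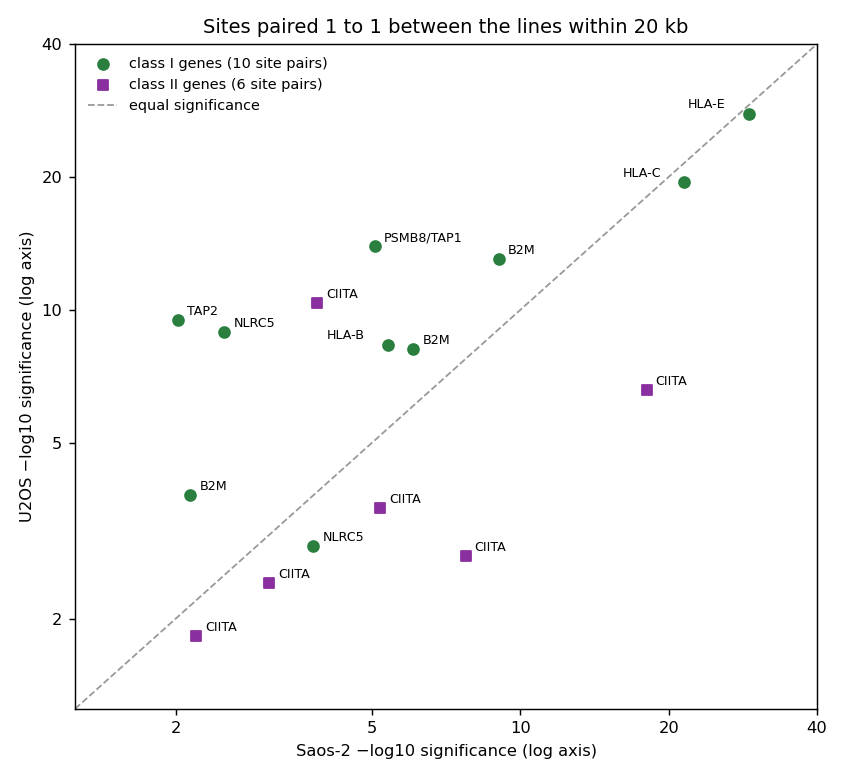
The authors' −log10 significance in Saos-2 (x axis) and U2OS (y axis), both on log axes, at the sites paired 1 to 1 between the lines within 20 kb of the genes; the dashed line marks equal values. Of the class I pairs (circles) 7 of 10 lie above the line, HLA-C and HLA-E lie close to it, and 5 of 6 CIITA pairs (squares) lie below it. The point labelled HLA-B is the site in the pseudogene DHFRP2, outside the gene. The HLA-B start, with a hotspot in Saos-2 and none in U2OS, and the TAP1 start had no 1 to 1 partner and are not shown.

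The classes were then compared in how often their hotspots were shared between the lines. Of 16 distinct Saos-2 hotspots within 20 kb of class I genes, 12 overlapped a U2OS hotspot (75.0%, Wilson 95% interval 50.5 to 89.8%). Of 19 in U2OS, 11 overlapped a Saos-2 hotspot (57.9%, interval 36.3 to 76.9%). With the U2OS list cut to the length of the Saos-2 list, by significance, the numbers were 12 of 16 in Saos-2 (75.0%) and 11 of 15 in U2OS (73.3%). The cut removed the least significant U2OS hotspots, and the reason for the lower U2OS share in the full lists was not tested. On the class II side 6 of 10 Saos-2 hotspots (60.0%, 31.3 to 83.2%) and 6 of 8 U2OS hotspots (75.0%, 40.9 to 92.9%) were overlapped. The intervals cover counting error only, and each class II interval overlaps the class I interval of the same line. Over the whole lists, 58.1% of Saos-2 and 46.9% of U2OS hotspots were overlapped. Of the 5 class I genes with a listed start, all had a hotspot within 1 kb of it in Saos-2 and 4 in U2OS, compared with 51.1% and 55.9% of 15843 protein-coding genes.

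**Figure D4:**
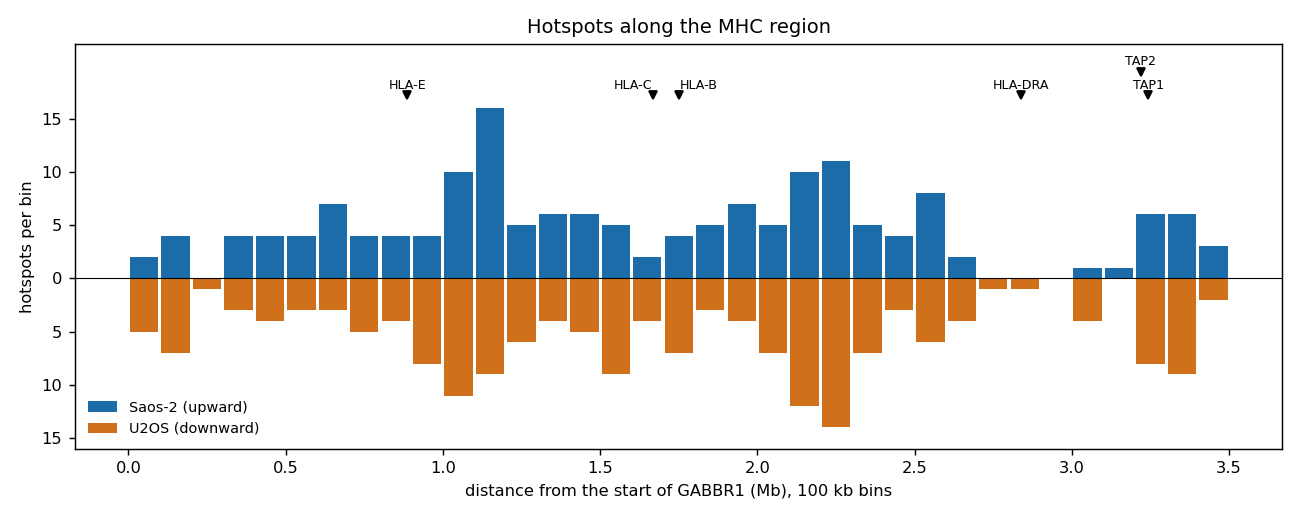
Hotspots in 100 kb bins along the MHC region of chromosome 6, plotted by distance from the start of GABBR1, upward for Saos-2 and downward for U2OS; triangles mark the genes described, and the last bin is shorter. The bin that starts 2.9 Mb along, just past HLA-DRA, has no hotspot in either line, and the fullest bin has 16 in Saos-2.

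Hotspots were sparser around the class II genes of the MHC than around its class I genes. Between the start of GABBR1 and the end of MICB, the class I part, hotspots numbered 95 in Saos-2 and 101 in U2OS, or 49.8 and 52.9 per Mb. From HLA-DRA to HLA-DPB1, the class II part, which contains TAP1 and TAP2, they numbered 17 and 24, or 26.2 and 36.9 per Mb. The unknown read treatment limits these densities as well. A hotspot lay within 1 kb of 38 (Saos-2) and 37 (U2OS) of 52 protein-coding genes in the class I part, and of 8 and 9 of 18 in the class II part. The whole region, to the end of HLA-DPB1, had 64.1% of its 131 protein-coding genes with a hotspot within 1 kb in Saos-2 and 64.9% in U2OS.

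Other genes of the class I pathway also had hotspots in most cases. Of 13 further class I pathway genes, 12 had a hotspot within 1 kb in Saos-2 and 11 in U2OS, compared with 64.8% and 70.7% of protein-coding genes. These genes are not all separate: PSMB8 and PSMB9 were counted on hotspots already counted for TAP1. ERAP2 lies within the span of ERAP1, so its hotspots were counted for both. The list also mixes span lengths. PSMB8, PSMB9, PSMB10, PSME1, PSME2 and CALR have spans under 10 kb, a class with shares of 37.5% and 42.7%. CANX has a span of 50 to 100 kb, a class with 82.0% and 87.8%, and ERAP1 is longer. TAPBP, which encodes the bridge between TAP and the heavy chain, had none in either line, and PSME1, a proteasome activator subunit, had one in Saos-2 (significance 2.68) and not in U2OS. All 13 had a hotspot within 20 kb in both lines, as did all 7 class I genes above and CIITA, compared with 77.6% of protein-coding genes (80.9% in Saos-2 and 87.1% in U2OS). The median coverage within 1 kb was 409 bp (Saos-2) and 466 bp (U2OS), compared with 278 and 356 bp over all protein-coding genes.

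Of 10 further class II pathway genes, 5 had a hotspot within 1 kb in each line, 4 of them in both lines and 4 genes in neither. The shares over all protein-coding genes were 64.8% and 70.7%, and over those with a span under 10 kb, the length class of HLA-DOA, HLA-DOB, HLA-DMA, HLA-DMB and IFI30, 37.5% and 42.7%. HLA-DPA1 and HLA-DPB1, whose spans overlap, were counted on the same single hotspot in each line, of 125 bp and significance 2.43 in Saos-2 and of 145 bp and 2.51 in U2OS. The median coverage was 62.5 bp (Saos-2) and 72.5 bp (U2OS). HLA-DMA and HLA-DMB encode the chains of a molecule that loads peptides onto class II. HLA-DMA had a hotspot in Saos-2 (2.12) and not in U2OS, and HLA-DMB had one in U2OS (4.25) and not in Saos-2.

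The genes of the factors that bind class I and class II promoters (RFX5, RFXAP, RFXANK, NFYA, NFYB, NFYC and CREB1) had a hotspot within 1 kb in both lines in 7 of 7 cases. Over all protein-coding genes this share was 60.0%. Of 7 genes of interferon gamma signalling, 7 had a hotspot within 1 kb in Saos-2 and 6 in U2OS, compared with 64.8% and 70.7%. IFNGR2, a chain of the receptor, had one in Saos-2 (significance 4.57) and not in U2OS. Both lists mix span lengths. NFYC, CREB1 and IRF2 have spans of 50 to 100 kb, a class with shares of 82.0% and 87.8%, and JAK1 and JAK2 are longer. RFX5, RFXAP, RFXANK and IRF1 have spans under 10 kb, a class with 37.5% and 42.7%.

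**Figure D5:**
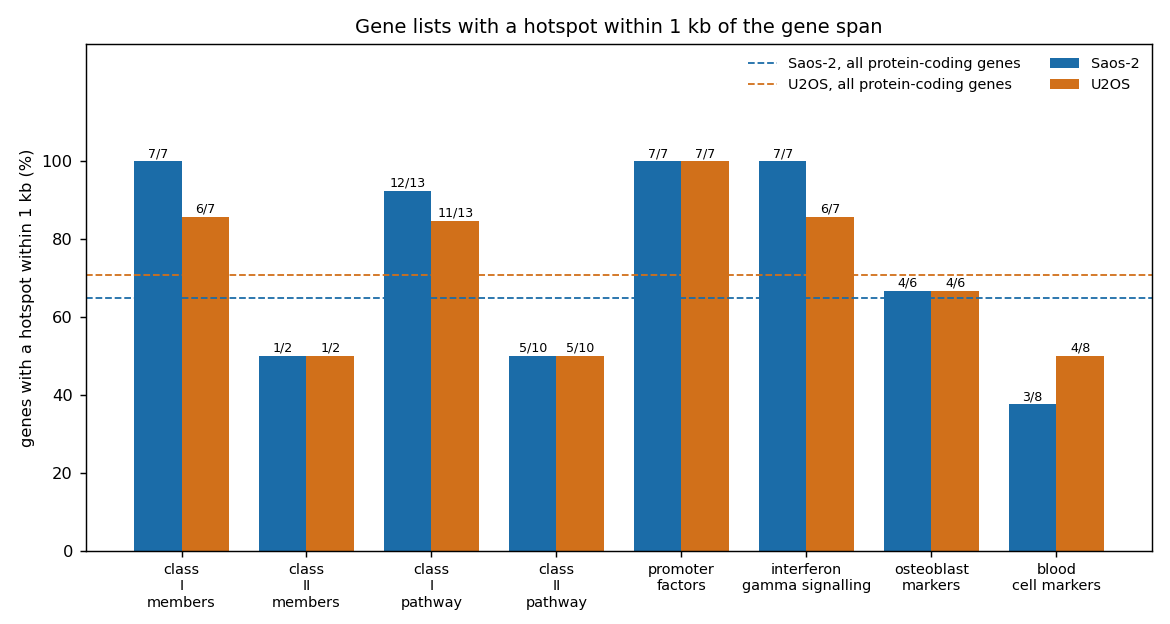
Share of genes in each list with at least 1 hotspot within 1 kb of the gene span in Saos-2 and U2OS (count of genes above each bar); dashed lines give the share of all protein-coding genes, 64.8% in Saos-2 and 70.7% in U2OS. The class I lists, the promoter factors and interferon gamma signalling lie above the lines in both cell lines, while the class II genes, the class II pathway list (5 of 10 genes in each line) and the blood cell markers lie below them. The osteoblast markers, at 4 of 6, lie close to them. Genes with a span under 10 kb have lower shares than the lines, 37.5% and 42.7%, and those with a span of 50 to 100 kb higher ones, 82.0% and 87.8%.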

How the data were processed

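DNase-seq of Saos-2 and U2OS, 1 library each, was analysed from the deposited hotspot lists. Per the submitters' processing notes, Trimmomatic 0.38 and BWA 0.7.15 were used with hg38; the hotspot caller, read filters and read depth are not given in the sources used here. Each hotspot has a deposited −log10 value, taken as significance because its minimum is the −log10 of the 0.05 in the file names, and a deposited score, which is that value times 10 and was not used. Gene spans and promoters came from RefSeq (GRCh38.p14). Coordinates are 1-based. A hotspot counted when at least 1 bp lay within 1 kb or 20 kb of a span, and overlap between lines needed 1 bp. Percentiles are ranks within a list. Exons were not used here. All 9 genes were named by rule, list genes where they were exceptions within their list. The genes and lists were chosen with earlier results of these data known. Overlap counting was checked on 500 simulated windows, with 0 wrong counts. Python 3.11.15, pandas 2.3.3, SciPy 1.17.1 and Biopython 1.88 were used. Alternatives varied lists, windows and overlap.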

Additional observations from a re-analysis of the deposited data

How the results depend on the processing

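No paired analysis was possible because each line had 1 library, and no library could be left out. Of 66 values recomputed for 12 results, 57 stayed within 1.5-fold of the reported count or within the interval of the reported share, and 9 moved. This rule is loose, because the intervals of the class I shares are wide. The Saos-2 share fell from 75.0% to 56.25% when at least 50% of both hotspots had to overlap, and counted as staying. Class I counts within 1 kb of a listed start, 5 in Saos-2 and 4 in U2OS, also counted as staying. They cover the 5 genes with a listed start, and were set against 7 and 6 of 7 genes. With the top 50% of each list, hotspots within 20 kb of class I genes fell to 9 in Saos-2 and 11 in U2OS, and of class II genes to 4 and 2. In a 50 kb window the class I numbers were 29 and 37, and the class II number of U2OS was 13. With all annotated genes the share with a hotspot within 1 kb was 34.4% in Saos-2 and 39.2% in U2OS. The 9 that moved follow from shorter lists, a longer window and more genes. In the top 50% of the lists, class I genes with a hotspot within 1 kb numbered 5 in Saos-2, without TAP2 and NLRC5, and 6 in U2OS. HLA-B lacked a U2OS hotspot and HLA-DRA any hotspot within 1 kb in these lists and in lists of equal length. Unknown depth limits what the absence of a hotspot shows.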

Other observations

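HLA-DMA, singled out after its values were seen, had 4 hotspots within 20 kb in Saos-2 and 8 in U2OS, more than the other class II pathway genes. Most lay in the neighbouring gene BRD2, which encodes a chromatin reader that is not part of antigen presentation: 3 of the 4 in Saos-2 and 7 of the 8 in U2OS. The most significant spanned 690 bp in Saos-2 (significance 11.6) and 894 bp in U2OS (30.0). A count within 20 kb of a gene in this part of the MHC therefore includes sites of its neighbours, as for TAP1 and TAP2.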
